A study of Homo sapiens with 9 samples.

Results

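Expression of the WNT signalling genes was measured by RNA sequencing in the established cell line SKOV3, which comes from a human ovarian cancer. The genes were chosen by name alone from the 32378 genes of the deposited table: WNT ligands, Frizzled receptors (FZD), DKK and SFRP inhibitors, the co-receptors LRP5 and LRP6, and AXIN1, AXIN2, LGR4, LGR5, RNF43, ZNRF3, NKD1, NKD2, WIF1, TCF7, TCF7L1, TCF7L2 and LEF1. This gave 46 genes, made up of 16 ligands, 11 receptors and co-receptors, 4 R-spondin receptors and ubiquitin ligases, 7 secreted inhibitors, 4 intracellular inhibitors and 4 TCF/LEF factors. The 9 libraries fell into 3 groups of 3: control, Carbo, read as carboplatin from the design text of the series, and Carbo+COM33, in which COM33 is known by its code name only. By its design text, the series asks how COM33 raises the sensitivity of these cells to carboplatin. Neither the dose nor the time of treatment is stated in the labels, there is no group with COM33 alone, and every group is of the same cell line. What the replicate numbers stand for is not stated, so a p-value here measures no more than the spread among these samples, and that spread may be technical.

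WNT ligands are secreted glycoproteins that bind a Frizzled receptor together with LRP5 or LRP6. Binding stops the destruction complex, which is built on AXIN, from degrading beta-catenin, and beta-catenin then acts with TCF/LEF factors on DNA. Among DKK proteins, DKK1 blocks LRP5 and LRP6, while the action of DKK3 on WNT signalling varies with the cell. SFRP proteins and WIF1 capture ligands outside the cell. ZNRF3 and RNF43 remove Frizzled receptors from the surface unless R-spondins engage LGR receptors. In tumours of the ovary the pathway is studied for its links to cell state and drug response.

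Total counts ran from 13851760 to 15533668 per library. Of the 32378 genes, 16450 had enough counts to be tested, and these included 35 of the 46 WNT genes. The other 11 had low counts: WNT1, WNT8B, WNT10B, WNT16, LGR5, RNF43, LEF1, DKK4, SFRP4, SFRP5 and WIF1 had between 1 and 41 counts each in all 9 libraries together, and changes in them were not detectable at this depth. Of the markers of an epithelial ovarian cancer line, ERBB2, which SKOV3 is known to express strongly, lay at 141 to 245 FPKM (fragments per kilobase of exon, scaled to library size), PAX8 at 38.0 to 70.4 and KRT7 at 27.8 to 90.9, while MUC16, the gene of CA125, did not exceed 0.0646. The summed FPKM of the 9 markers of this list was lower with Carbo+COM33 (335.6 to 391 per library) than in control (454 to 497) or Carbo (438 to 494), and its part in the results below was not tested. ERBB2 and KRT7 carried most of this difference (means of 235 and 76.2 FPKM in Carbo, 156 and 32.4 in Carbo+COM33), while PAX8 and CLDN4 went the other way (45.0 and 10.9 in Carbo, 64.7 and 15.9 in Carbo+COM33). The 4 mesothelial markers, chiefly MSLN, summed to 44.1 to 49.1 FPKM in control, 35.3 to 40.5 in Carbo and 30.5 to 40.2 in Carbo+COM33. The means of MSLN, UPK3B and WT1 were lower in Carbo+COM33 than in Carbo. CALB2, with 8 to 51 counts per library, went the other way (means of 0.51 FPKM in control, 0.593 in Carbo and 1.69 in Carbo+COM33). The 6 fibroblast markers, chiefly COL1A1, summed to 1.06 to 4.21 FPKM in control, 1.08 to 4.24 in Carbo and 0.624 to 1.35 in Carbo+COM33, with DCN, PDGFRA and PDGFRB at or near 0. The sums of 6 blood and immune markers, 3 endothelial markers and 3 nerve markers were at most 0.646, 0.0587 and 1.42 FPKM, and the part of these lists in the results was not tested either.

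Levels of different genes were compared as FPKM, which corrects for gene length. Among the ligands WNT7B, a ligand of epithelial tissues, was the highest, with a mean level over the 9 libraries of 13.8 FPKM, followed by WNT3 at 8.57, WNT10A at 6.76, WNT9A at 6.61, WNT7A at 5.44 and WNT3A at 3.87. WNT7B reached 15.98, 15.6 and 13.6 FPKM in control 1 to 3, 14.8, 13.3 and 11.4 in Carbo 1 to 3, and 10.9, 13.4 and 15.0 in Carbo+COM33 1 to 3, so that the groups overlapped. The ranges over libraries of WNT10A (3.005 to 11.1 FPKM), WNT9A (3.54 to 9.09) and WNT7A (3.31 to 7.26) overlapped each other, and their order was within this spread. WNT11 had a mean of 1.43 and WNT2B of 1.10, and the remaining tested ligands, WNT6, WNT5A, WNT4 and WNT5B, had means between 0.241 and 0.641 FPKM. WNT1 was the lowest of the 16, with 1 count in 1 of 9 libraries.

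All 11 receptors were tested. FZD6 (mean 31.0 FPKM) and FZD2 (27.3) were the highest, and FZD7 (10.7), LRP5 (8.63), LRP6 (4.62), FZD8 (3.57), FZD5 (3.50), FZD3 (2.86), FZD1 (2.66), FZD4 (1.16) and FZD9 (0.853) followed. Levels of FZD6 were 27.8, 28.0 and 30.9 FPKM in control, 32.8, 32.7 and 33.3 in Carbo, and 33.0, 31.4 and 29.5 in Carbo+COM33. FZD2 ran from 16.8 to 35.02 FPKM, a range that takes in that of FZD6. Of the R-spondin receptors and ubiquitin ligases, ZNRF3 had a mean of 6.58 FPKM and stayed between 6.18 and 6.97 in all 9 libraries, and LGR4 had a mean of 5.72. Their relatives RNF43 and LGR5 had means of 0.0324 and 0.0245 FPKM.

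The secreted inhibitors were led by DKK3 (mean 24.7 FPKM), DKK1 (16.1) and SFRP1 (8.98), and each of the other 4 lay under 0.05 FPKM on average. AXIN1, the scaffold of the destruction complex, had a mean of 14.2 FPKM and supplied 82.4% to 92.4% of the summed FPKM of the 4 intracellular inhibitors. AXIN2, an inhibitor that beta-catenin itself induces in many tissues, had a mean of 0.991, NKD2 of 0.791 and NKD1 of 0.421. Among the TCF/LEF factors TCF7L2 (8.01) and TCF7L1 (6.16) were far above TCF7 (1.07) and LEF1 (0.00717). By the mean over all 9 libraries, the most abundant message of each role was WNT7B, FZD6, ZNRF3, DKK3, AXIN1 and TCF7L2. WNT7B and AXIN1 led their roles in every library, but FZD2 exceeded FZD6 in control 2, control 3 and Carbo 2, LGR4 exceeded ZNRF3 and DKK1 exceeded DKK3 in Carbo 2 and Carbo 3, and TCF7L1 exceeded TCF7L2 in Carbo+COM33 3.

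**Figure D1:**
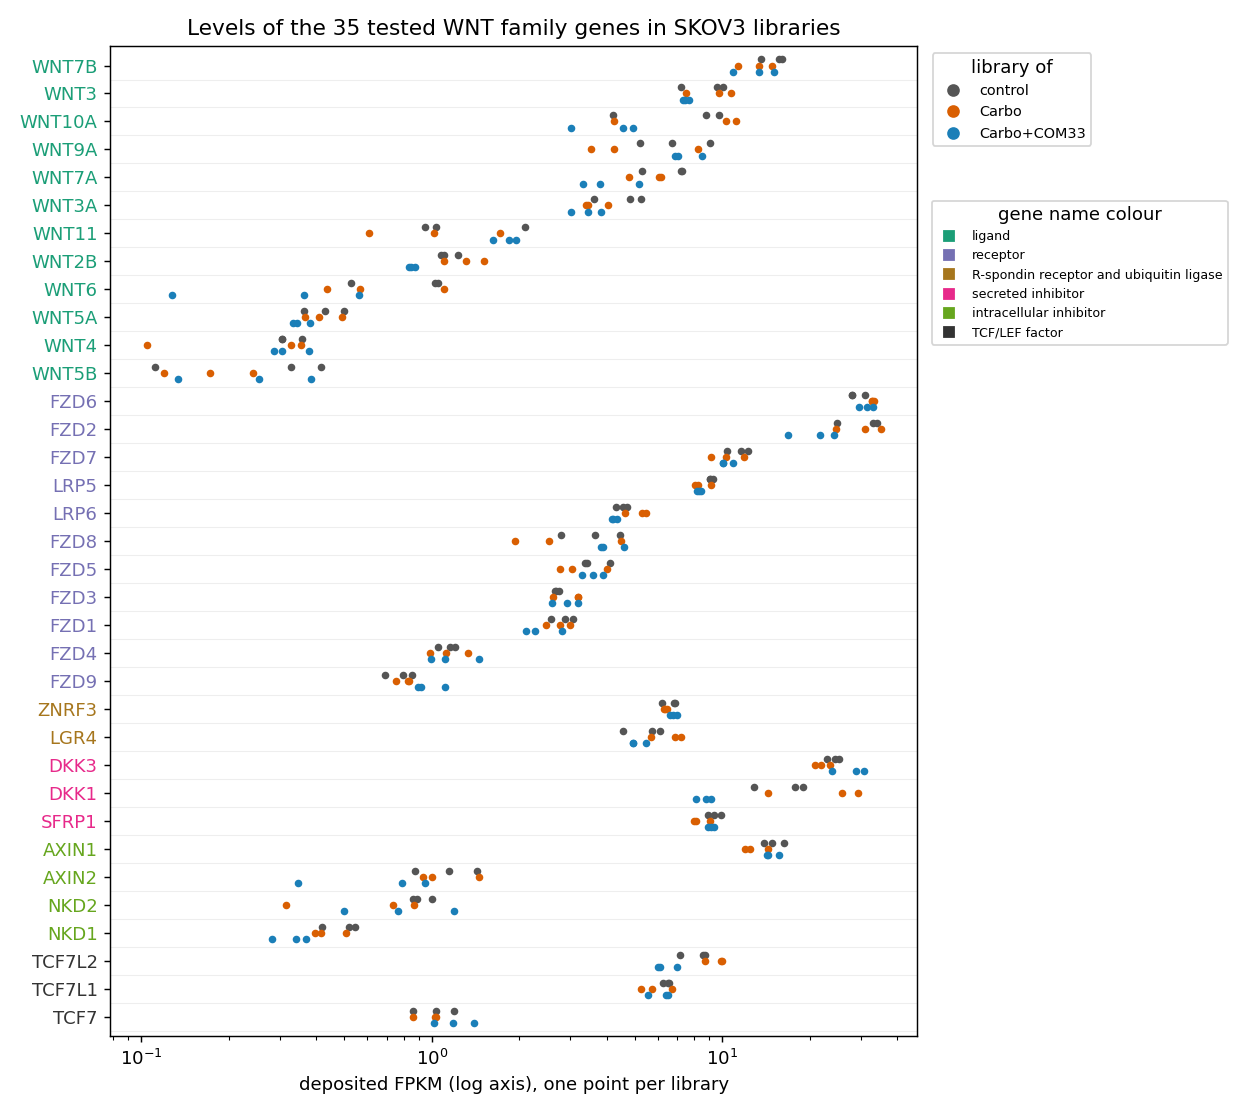
Deposited FPKM of the 35 tested WNT genes, 1 point per library on a log axis, coloured by group, with gene names coloured by role and ordered by mean level within a role. FZD6, FZD2 and DKK3 lie at the right; the blue points of DKK1 (8.12 to 9.10 FPKM) lie left of all its control and Carbo points (12.9 to 29.4).

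Tests used the deposited counts in edgeR's quasi-likelihood model over all 9 libraries, with p-values adjusted by Benjamini-Hochberg over the 16450 genes, and a gene was called at an adjusted p under 0.05. Levels below are CPM, counts scaled to the TMM-corrected library size, which serve to compare libraries and not genes. The 3 comparisons share libraries, so their calls are not independent of each other. Bulk RNA cannot tell fewer expressing cells from less RNA per cell.

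Adding COM33 to Carbo went with lower DKK1, TCF7L2 and WNT2B and higher DKK3. In Carbo+COM33 vs Carbo the test called these 4 of 35 WNT genes (11.4%) and 4.96% of all genes tested. Of the 4, DKK3 was up (2.43% of all genes) and the other 3 down (2.53%). The median log2 fold change of the 35 was 0.00 (0.002) and that of all genes -0.01, with 18 positive and 17 negative values among the 35. Values of Carbo+COM33 and Carbo did not overlap for 13 of the 35 genes, 6 above and 7 below, and for 23.7% of all genes. How many were called depended on single libraries: 14 were called without Carbo 1 (5 up and 9 down, where 16.5% of all genes were called), 1 without Carbo 2, and 2 each without Carbo 3, Carbo+COM33 1, Carbo+COM33 2 and Carbo+COM33 3. All genes called numbered 120 without Carbo 2 and 234 to 488 without these last 4, against 816 with all libraries. Apart from DKK1, DKK3, TCF7L2 and WNT2B, the WNT genes called without Carbo 1 were called in no other such fit of this comparison.

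Against untreated control, Carbo+COM33 had lower DKK1 and WNT7A. The test called these 2 of 35 (5.71%), both down, and 6.29% of all genes (3.2% of all genes up and 3.09% down). The median log2 fold change was -0.11 over the 35 and -0.01 over all genes, with 23 negative values. Values did not overlap for 8 of 35 genes, 7 of them lower with Carbo+COM33, and for 28.7% of all genes. Left out singly, control 2, control 3, Carbo 2, Carbo+COM33 1 and Carbo+COM33 2 each took the count to 0, while 5 were called without Carbo 1 (11% of all genes) and 4 without control 1. With those libraries left out that gave 0 calls, the test called 114 to 631 of all genes, against 1035 with all libraries.

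Carbo vs control gave 0 calls among the 35, and 0% of all genes, with a lowest adjusted p of 0.270 (FZD6). At an unadjusted p under 0.05 there were 5 of 35 (16.7% of all genes). DESeq2 called 0 of the 35, and a small share of all genes, whose count closes the text. Without Carbo 1, edgeR called 3, DKK1 up (0.74) and FZD8 (-0.70) and WNT9A (-0.85) down, where 6.29% of all genes were called. That fit kept control 1, so a departure shared by replicate 1 of both groups enters its fold changes. The groups did not overlap for 3 genes, FZD6 and TCF7L2 above control and NKD2 below it, and for 22.5% of all genes. Same-numbered control and Carbo libraries deviated together, as given with the processing, so a second fit of these 6 libraries added a block for the replicate number. This paired fit called 7 of the 35 (20%, and 22.7% of all genes): DKK1, LGR4, FZD6 and TCF7L2 rose (11.2% of all genes), and AXIN1, WNT7B and WNT9A fell (11.5%). Once the trends of each library with GC content and gene length were removed, the paired fit called 3, all up (DKK1, WNT10A and FZD2), where 10.4% of all genes were called, and the median of the 35 went from -0.12 to 0.02. The paired count was 14 without replicate 1 (26.4% of all genes), 1 without replicate 2 (9.87%) and 8 without replicate 3 (17.3%). With replicate 1 left out of both groups, the paired values of DKK1, FZD8 and WNT9A were 0.59, -0.52 and -0.61. In the paired fit without that correction the median log2 fold change was -0.20 for the 11 WNT genes whose GC content exceeds 60%, and -0.24 for all 2275 such genes.

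**Figure D2:**
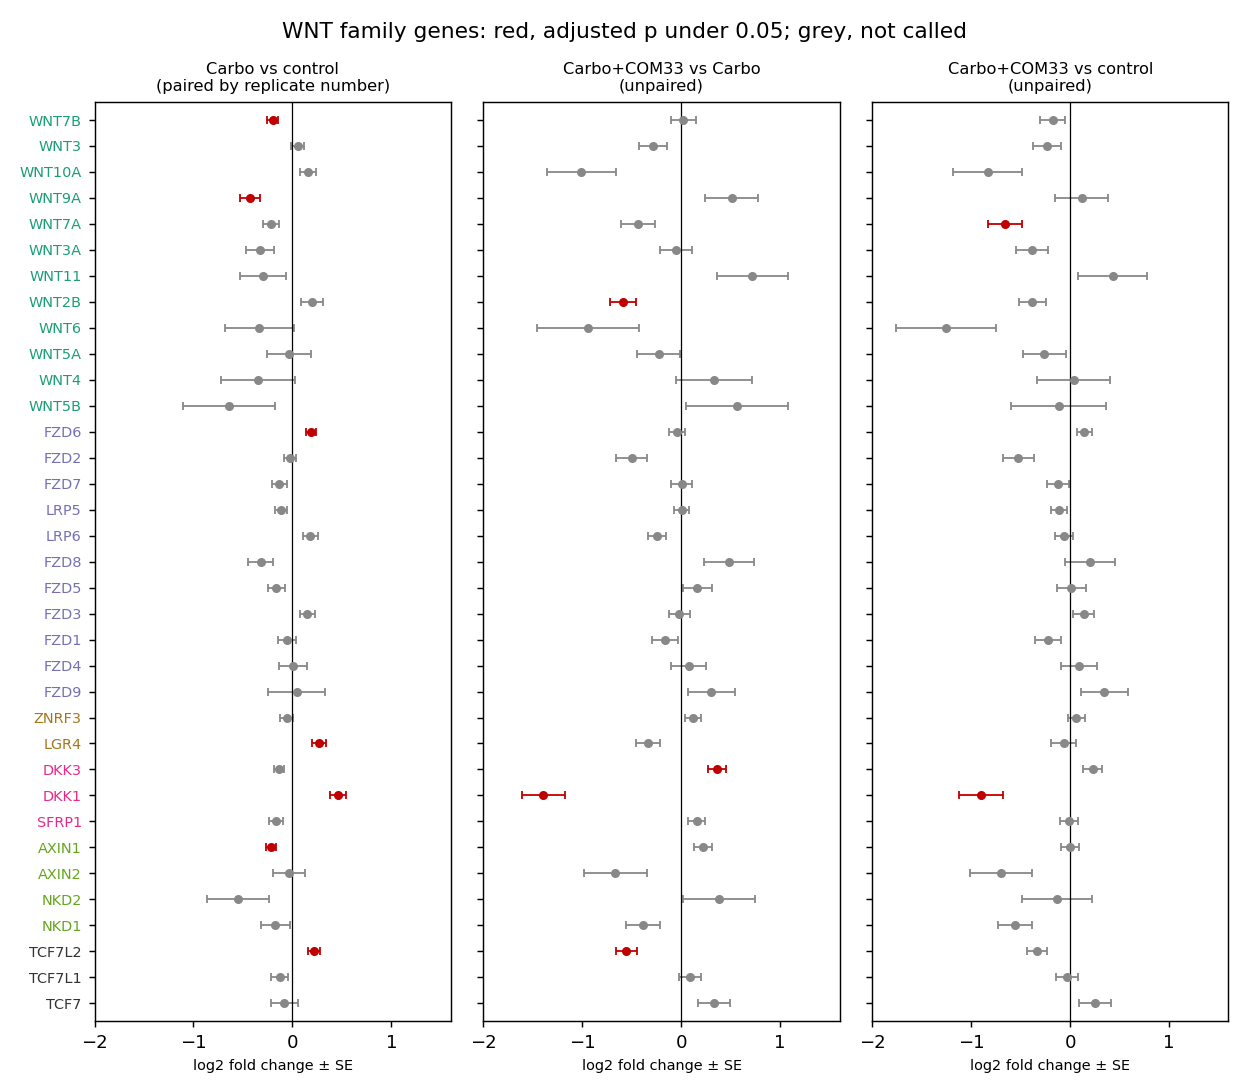
Log2 fold change ± SE of the 35 tested WNT genes for Carbo vs control (paired fit) and for Carbo+COM33 against Carbo and against control (unpaired fits), red where called. DKK1 is red in all 3 panels, positive in the first and negative in the others; AXIN1 and WNT7B, red and negative in the first panel, were positive (0.02 and 0.03) and not called after the GC and length correction.

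DKK1, TCF7L2 and WNT2B were the WNT genes called down in Carbo+COM33 vs Carbo, and whether they are regulated jointly was not tested. The 250 bases before their start sites are shown, from RefSeq on GRCh38.p14, 5′ to 3′ on the strand of the gene. Capitals mark matches, on either strand, to a TCF/LEF motif (the letters CTTTGAA, the variant CTTTGAT, the variant CTTTGTA or the variant CTTTGTT), to a TATA box (the letters TATAAA) and to a GC box (the letters GGGCGG). DKK1 lies at chr10:52314296-52318042, TCF7L2 at chr10:112950250-113167678 and WNT2B at chr1:112466541-112530165 (GENCODE 29, all on the plus strand). The windows are chr10:52314031-52314280, chr10:112949997-112950246 and chr1:112466291-112466540.
DKK1: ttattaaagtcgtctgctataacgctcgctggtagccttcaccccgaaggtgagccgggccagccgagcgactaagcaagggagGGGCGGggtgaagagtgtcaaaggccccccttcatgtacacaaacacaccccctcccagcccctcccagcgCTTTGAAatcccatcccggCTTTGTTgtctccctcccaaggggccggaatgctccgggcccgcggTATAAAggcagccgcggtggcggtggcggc
TCF7L2: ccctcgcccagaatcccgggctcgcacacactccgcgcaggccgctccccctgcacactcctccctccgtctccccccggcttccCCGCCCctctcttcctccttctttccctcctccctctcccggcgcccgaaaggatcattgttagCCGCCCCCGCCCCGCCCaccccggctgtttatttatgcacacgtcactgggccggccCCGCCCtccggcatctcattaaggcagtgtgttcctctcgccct
WNT2B: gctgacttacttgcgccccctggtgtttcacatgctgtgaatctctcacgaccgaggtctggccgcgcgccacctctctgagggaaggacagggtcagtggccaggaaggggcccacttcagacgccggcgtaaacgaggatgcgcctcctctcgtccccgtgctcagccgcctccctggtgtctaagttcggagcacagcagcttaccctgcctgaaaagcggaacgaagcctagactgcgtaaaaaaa
The DKK1 window held TCF/LEF matches starting at -95 and -76, a TATA box at -30 and a GC box at -166. The TCF7L2 window held 5 GC boxes, printed as their reverse complement, and that of WNT2B held none of these letters, nor the AP-1 motif TGANTCA. Windows were found for 31 of the 46 genes. Of these, 1 had a TCF/LEF match (DKK1; 12% of 35116 promoter windows of the same length), 3 a TATA box (DKK1, FZD8 and TCF7; 10.7%), 25 a GC box (42.6%) and 0 an AP-1 match (6.57%). The median GC content was 71.6% in the 31 windows and 58% in all. No overlap between motifs was removed, and a match describes letters, not binding.

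Among the ligands, WNT2B was the only 1 of 12 called in Carbo+COM33 vs Carbo. It measured 13.7, 18.8 and 16.5 CPM in Carbo and 10.9, 11.1 and 10.6 in Carbo+COM33, with 13.9, 13.4 and 15.3 in control. All 3 Carbo+COM33 libraries were below the other 6. WNT2B fell by 0.59 on the log2 scale (SE 0.136, adjusted p = 0.0284). It was called in 4 of the 9 fits that left out a library, and not without Carbo 2 (adjusted p = 0.159), Carbo 3 (0.0877), Carbo+COM33 1 (0.0969), Carbo+COM33 2 (0.0904) or Carbo+COM33 3 (0.0711). Exons of WNT2B share 2661 bases, 21.2% of their length, with those of ST7L on the other strand, and whether the counting used strand is not given in the sources used here, so their reads may be mixed; ST7L had a log2 fold change of -0.08 (adjusted p = 0.817).

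WNT7A, a ligand of the female reproductive tract in development, was the ligand called against control. Its levels were 24.3, 32.9 and 32.8 CPM in control, 21.8, 27.4 and 28.1 in Carbo, and 15.5, 17.5 and 24.0 in Carbo+COM33. The highest Carbo+COM33 library lay just under the lowest control library. The log2 fold change of WNT7A (chr3:13816258-13880121, minus strand) was -0.66 (SE 0.172, adjusted p = 0.0415). WNT7A was not called without control 2 (adjusted p = 0.185), control 3 (0.139), Carbo 2 (0.0650), Carbo+COM33 1 (0.195) or Carbo+COM33 2 (0.161). Against Carbo the value was -0.44 (adjusted p = 0.156), and -0.55 (adjusted p = 0.0426) without Carbo 1.

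WNT9A and WNT7B were the ligands that fell in the paired fit of Carbo vs control. WNT9A stood at 36.3, 26.4 and 20.6 CPM in control 1 to 3 and at 32.7, 16.7 and 14.1 in Carbo 1 to 3, lower with Carbo in 3 of 3 pairs, and at 28.4, 27.7 and 34.1 in Carbo+COM33. Its paired log2 fold change was -0.43 (SE 0.101, adjusted p = 0.00563), -0.26 (adjusted p = 0.102) after the GC and length correction, and -0.32 (adjusted p = 0.1004) without replicate 2. WNT7B measured 81.0, 78.1 and 68.1 CPM in control and 74.5, 66.5 and 57.5 in Carbo, also lower in 3 of 3 pairs, with a paired log2 fold change of -0.20 (SE 0.0580, adjusted p = 0.0191) that turned to 0.03 (adjusted p = 0.813) after the correction. WNT7B was not called without replicate 2 (adjusted p = 0.203) or replicate 3 (0.0716).

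The other ligands were not called by the unpaired test in any comparison. WNT10A had the largest difference between Carbo+COM33 and Carbo of these: 14.4, 37.6 and 35.01 CPM in Carbo and 10.5, 15.7 and 17.0 in Carbo+COM33, a log2 fold change of -1.01 (SE 0.347, adjusted p = 0.111). The groups overlapped only through Carbo 1, and without that library the value was -1.33 (adjusted p = 0.00314), where 16.5% of all genes were called. Leaving out Carbo 1 removes the overlapping value itself. That fit kept Carbo+COM33 1, and WNT10A was low in replicate 1 of every group, which enters its fold change. In the paired fit of Carbo vs control WNT10A had a value of 0.16 (adjusted p = 0.196), and of 0.44 (adjusted p = 0.001405) with the GC and length correction. WNT3 (-0.29 in Carbo+COM33 vs Carbo), WNT3A (-0.06) and WNT11 (0.72) were not called. Without Carbo 1, WNT3 (-0.42, adjusted p = 0.0363), WNT11 (1.16, adjusted p = 0.0349) and WNT9A (0.97, adjusted p = 0.00409, against 0.51 and 0.290 with all libraries) were called. Neither these genes nor WNT10A were called in any other fit of this comparison that left out a library. Summed over the 16 ligands, the level was 50.6, 58.9 and 54.0 FPKM in control, 47.8, 52.1 and 49.6 in Carbo, and 38.2, 44.3 and 49.2 in Carbo+COM33.

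No Frizzled gene and neither LRP5 nor LRP6 was called by the unpaired test in any of the 3 comparisons. FZD6, a receptor known for planar cell polarity, was at 114, 113 and 125 CPM in control and at 133, 131 and 135.5 in Carbo, without overlap. In the paired fit FZD6 rose by a log2 fold change of 0.19 (SE 0.0502, adjusted p = 0.0127), which was 0.02 after the GC and length correction; without replicate 2 the adjusted p was 0.175. FZD2 was lower in all 3 Carbo+COM33 libraries (36.2, 46.5 and 51.7 CPM) than in Carbo (51.7, 73.1 and 65.7), but the highest of the former and the lowest of the latter were nearly level. Its log2 fold change was -0.50 (adjusted p = 0.0868) against Carbo and -0.52 (adjusted p = 0.0686) against control. Of the fits that left out 1 library, only that without Carbo 1 called FZD2 against Carbo (-0.63, adjusted p = 0.00940). That fit called 16.5% of all genes.

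LRP6 reached 47.5, 56.0 and 54.5 CPM in Carbo and 44.5, 43.6 and 45.3 in Carbo+COM33, a log2 fold change of -0.25 (adjusted p = 0.129), and -0.31 (adjusted p = 0.0309) without Carbo 1. Its partner LRP5 differed by 0.00 (0.002, SE 0.0804) in the same comparison. FZD8 showed 17.9, 10.1 and 7.81 CPM in Carbo and 15.98, 15.6 and 18.6 in Carbo+COM33 (log2 fold change 0.49, adjusted p = 0.282), and the groups overlapped through Carbo 1. Without that library FZD8 was called (0.90, adjusted p = 0.00630), in a fit that called 16.5% of all genes. FZD8 was called in no other fit of this comparison that left out a library. Leaving out Carbo 1 removes the overlapping value itself. FZD7, FZD3 and FZD4 had log2 fold changes of 0.00, -0.02 and 0.08, and the remaining receptors, FZD1, FZD5 and FZD9, values from -0.17 to 0.30, with none called. FZD4 shares 1399 bases, 19.0% of its exons, with PRSS23 on the other strand, which had 16710 counts in the 9 libraries, so reads of the pair may be mixed in the level of FZD4. Receptor levels summed to 94.2 to 102.5 FPKM in control, 98.7 to 106.0 in Carbo and 87.6 to 92.7 in Carbo+COM33. FZD2, which was not called, carried most of the difference between Carbo and Carbo+COM33 (means of 30.2 and 20.9 FPKM).

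LGR4, which binds R-spondins and so spares Frizzled receptors, was at 28.98, 36.0 and 38.3 CPM in control, 35.8, 43.1 and 45.9 in Carbo and 32.0, 35.1 and 31.6 in Carbo+COM33. Carbo was the higher in 3 of 3 pairs, although the 2 groups overlapped. The paired log2 fold change of LGR4 in Carbo vs control was 0.27 (SE 0.0703, adjusted p = 0.0102), 0.16 (adjusted p = 0.183) after the GC and length correction and 0.28 (adjusted p = 0.0863) without replicate 2. With Carbo+COM33 against Carbo it was -0.34 (adjusted p = 0.126), and -0.44 (adjusted p = 0.0236) without Carbo 1. ZNRF3, the ubiquitin ligase, was at 47.6, 47.2 and 42.8 CPM in control, 44.6, 43.2 and 44.4 in Carbo and 48.0, 49.2 and 46.5 in Carbo+COM33. Its log2 fold changes lay between -0.06 and 0.12 in the 3 comparisons, and ZNRF3 was not called.

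DKK1, which binds LRP5 and LRP6 and is itself known as a target of beta-catenin, showed the largest called change. It measured 28.5, 38.9 and 41.4 CPM in control, 31.6, 56.3 and 64.9 in Carbo, and 18.3, 19.6 and 20.3 in Carbo+COM33. All 3 Carbo+COM33 libraries were below every other library, and they were close to each other (19.4 ± 1.03 CPM, against 51.0 ± 17.3 in Carbo and 36.3 ± 6.84 in control; SD, n = 3). Relative to Carbo, DKK1 fell by 1.39 on the log2 scale (SE 0.219, adjusted p = 0.00473), to 0.380 of the Carbo level. The call held whichever of the 9 libraries was left out, with log2 fold changes from -1.65 to -1.18 and adjusted p from 1.19e-05 to 0.0408.

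Relative to control, DKK1 fell by 0.90 (SE 0.2203, adjusted p = 0.0321). This call was lost without control 2 (adjusted p = 0.137), control 3 (0.118), Carbo 2 (0.0506), Carbo+COM33 1 (0.144) or Carbo+COM33 2 (0.116), with log2 fold changes from -1.04 to -0.80. In Carbo vs control DKK1 was higher in 3 of 3 pairs, and it rose in the paired fit (log2 fold change 0.46, SE 0.0831, adjusted p = 0.000839). With the GC and length correction the paired value was 0.39 (adjusted p = 0.00164), and DKK1 was called with each of the 3 pairs left out. The unpaired test gave 0.49 (adjusted p = 0.279), and 0.74 (adjusted p = 0.0160) without Carbo 1. That last fit kept control 1, and with replicate 1 left out of both groups the paired value was 0.59. The antisense gene PRKG1-AS1 shares 212 bases with DKK1 and had 75 counts in all 9 libraries, against 4707 for DKK1.

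DKK3, a divergent DKK family protein whose action on WNT signalling varies with the cell, went the other way. It was at 116, 127 and 123 CPM in control, 109.5, 117 and 106 in Carbo and 123, 147 and 157 in Carbo+COM33. The 3 Carbo+COM33 libraries lay above the 3 Carbo libraries, and the lowest of them overlapped control. Relative to Carbo, DKK3 (chr11:11963106-12009769, minus strand) rose by a log2 fold change of 0.36 (SE 0.0944, adjusted p = 0.0458), and relative to control its value was 0.23 (adjusted p = 0.163). The call against Carbo was lost without control 2 (adjusted p = 0.0753), control 3 (0.0678), Carbo 2 (0.124), Carbo 3 (0.162), Carbo+COM33 2 (0.145) or Carbo+COM33 3 (0.112).

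On the FPKM scale the ratio of DKK1 to DKK3 was 0.564, 0.705 and 0.772 in control, 0.662, 1.10 and 1.41 in Carbo, and 0.340, 0.305 and 0.296 in Carbo+COM33. DKK1 was thus the more abundant of the pair in Carbo 2 and Carbo 3, and DKK3 in the other 7 libraries. SFRP1, the only other secreted inhibitor tested, was at 44.7, 46.7 and 42.4 CPM in control, 43.0, 38.1 and 38.1 in Carbo and 44.5, 43.0 and 45.2 in Carbo+COM33. SFRP1 was not called in any comparison (log2 fold changes -0.17, 0.15 and -0.01 in the order Carbo vs control, then Carbo+COM33 against Carbo and against control).

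**Figure D3:**
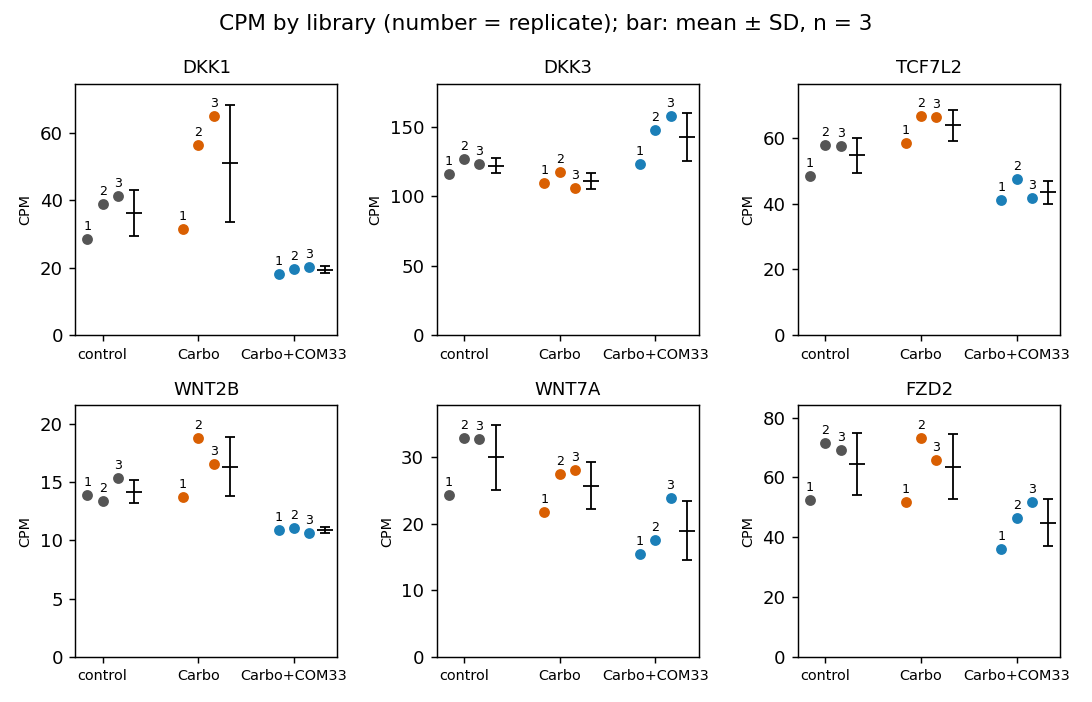
CPM of DKK1, DKK3, TCF7L2, WNT2B, WNT7A and FZD2 in each library (points, numbered by replicate) with the mean ± SD of each group (n = 3, black). Of these, DKK1, TCF7L2, WNT2B and FZD2 have all 3 Carbo+COM33 points below the other 6, FZD2 by a narrow margin (51.67 against 51.74 CPM). DKK3 is at 123 to 157 CPM with Carbo+COM33 against 106 to 117 with Carbo. FZD2 is shown as a gene that was not called.

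Of the intracellular inhibitors, AXIN1 was at 122, 110.0 and 104 CPM in control, 107, 92.1 and 90.0 in Carbo and 109.6, 108 and 118 in Carbo+COM33. Carbo was the lower in 3 of 3 pairs. AXIN1 fell by 0.22 in the paired fit of Carbo vs control (SE 0.0507, adjusted p = 0.00485), but the value was 0.02 (adjusted p = 0.843) after the GC and length correction, and the adjusted p was 0.114 without replicate 2. Against Carbo, AXIN1 had a log2 fold change of 0.22 with Carbo+COM33 (adjusted p = 0.189; 0.30 and 0.0395 without Carbo 1). AXIN2 measured 4.58, 5.93 and 7.46 CPM in control, 4.84, 5.16 and 7.60 in Carbo and 1.84, 5.03 and 4.16 in Carbo+COM33, where the low value is that of Carbo+COM33 1. Its log2 fold changes with Carbo+COM33 were -0.67 against Carbo (SE 0.314, adjusted p = 0.232) and -0.70 against control (SE 0.314, adjusted p = 0.197). NKD1, a Dishevelled-binding antagonist, lay lower in all 3 Carbo+COM33 libraries (6.04, 4.96 and 6.51 CPM) than in the 6 others (6.90 to 9.44), with -0.55 against control (adjusted p = 0.0733). NKD2, its relative, had values from -0.52 to 0.38 in the 3 comparisons and was not called.

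TCF7L2, which carries beta-catenin to its target genes, was at 48.4, 58.0 and 57.6 CPM in control, 58.3, 66.5 and 66.5 in Carbo and 41.1, 47.6 and 41.6 in Carbo+COM33. The Carbo libraries were the highest 3 of the 9 and the Carbo+COM33 libraries the lowest 3. Relative to Carbo, TCF7L2 fell by 0.55 with Carbo+COM33 (SE 0.102, adjusted p = 0.0101), a call lost without Carbo 2 (adjusted p = 0.0713) or Carbo+COM33 1 (0.0582). Relative to control the value was -0.33 (adjusted p = 0.0718). In the paired fit of Carbo vs control TCF7L2 rose by a log2 fold change of 0.22 (SE 0.0603, adjusted p = 0.0133), with 0.17 (adjusted p = 0.0759) after the GC and length correction and an adjusted p of 0.0992 without replicate 2. TCF7L1 and TCF7 were not called in any comparison, with log2 fold changes between Carbo+COM33 and Carbo of 0.09 (adjusted p = 0.691) and 0.33 (adjusted p = 0.251). TCF7 shares 2.09% of its exons with SKP1 on the other strand (12148 counts in the 9 libraries). TCF7L2 made up 49.1% to 53.8% of the summed FPKM of the 4 TCF/LEF factors in control, 52.9% to 61.7% in Carbo and at most 47.6% in Carbo+COM33.

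Several WNT genes separated replicate 1 from replicates 2 and 3 in both control and Carbo. WNT10A was low in replicate 1: 14.4 CPM in control 1 against 33.0 and 29.8 in control 2 and 3, and 14.4 in Carbo 1 against 37.6 and 35.01 in Carbo 2 and 3. WNT9A was high in replicate 1 (36.3 against 26.4 and 20.6 in control, 32.7 against 16.7 and 14.1 in Carbo), and so was WNT11 (5.06 against 2.46 and 2.26, and 4.10 against 2.42 and 1.46). Together with WNT6, which was low, 4 of 35 WNT genes (11.4%) departed by more than 1.5-fold in the same direction in both groups, 2 higher and 2 lower, against 2.57% of all genes tested; the groups of replicates were not set by the study and no test was made. WNT6 had only 11 to 27 counts per library in control and Carbo, and its ratio of 0.666 in Carbo lay at the edge of this limit. WNT11 had 21 to 73 counts. In Carbo+COM33 1 WNT10A and WNT6 were again low (0.651 and 0.560 of the mean of replicates 2 and 3), while WNT9A (0.926) and WNT11 (0.880) were not high. Across the 35 genes the departure of replicate 1 in control correlated with that in Carbo at 0.75, and over all genes at 0.52; between Carbo+COM33 and Carbo the values were 0.23 and 0.05. These correlations are across genes, which are not independent and share library and base composition. WNT6 and WNT10A are neighbours on chromosome 2, 6.13 kb apart, and WNT9A and WNT3A on chromosome 1, 59.1 kb apart; WNT3A was not high in replicate 1 of both groups (10.7, 15.2 and 14.03 CPM in control, 11.8, 9.99 and 9.97 in Carbo).

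**Figure D4:**
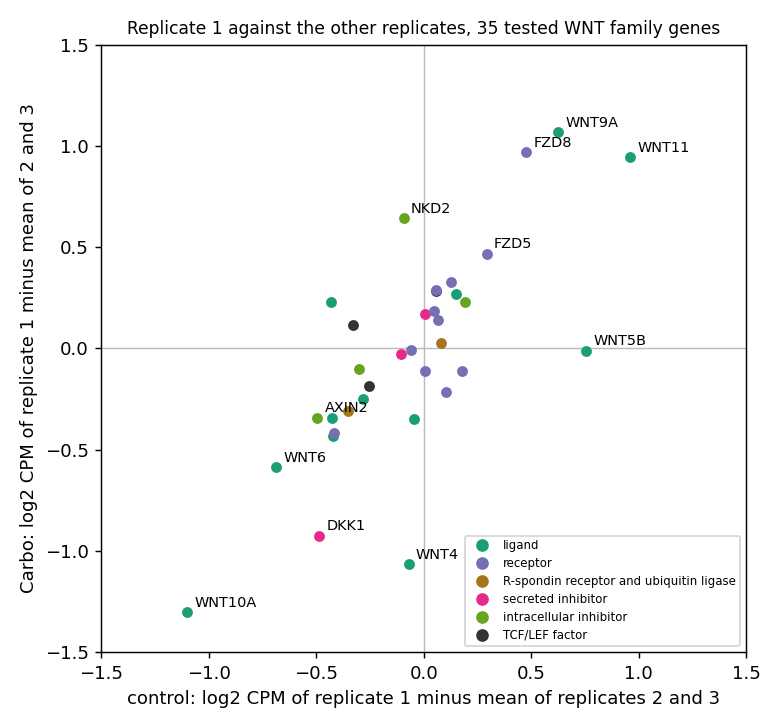
Departure of replicate 1 from the mean of replicates 2 and 3 (log2 CPM) in control (x axis) and Carbo (y axis), 1 point per tested WNT gene, coloured by role. WNT10A lies at -1.10 and -1.30, and WNT9A (0.62 and 1.07), WNT11 (0.96 and 0.94) and FZD8 (0.48 and 0.97) at the upper right.

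The rest of the pathway was read from a list of 82 further genes, of which 80 were in the table and 64 were tested. In Carbo+COM33 vs Carbo 5 of the 64 were called, 1 up and 4 down (7.81%, against 4.96% of all genes), with a median log2 fold change of -0.04. CCND1, the gene of cyclin D1 and a known target of the pathway, measured 175, 139 and 132 CPM in Carbo and 263, 226 and 226 in Carbo+COM33, with 163, 134.5 and 135 in control. CCND1 rose by a log2 fold change of 0.68 against Carbo (SE 0.117, adjusted p = 0.00717; 0.0598 without Carbo 2) and of 0.73 against control (adjusted p = 0.00542; 0.0515 without control 2). All 3 Carbo+COM33 libraries were above the other 6.

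The genes that fell against Carbo were CELSR2, PRICKLE1, JAG1 and PORCN. CELSR2, an atypical cadherin of planar cell polarity, went from 273, 278 and 249 CPM in Carbo to 178, 197 and 202 in Carbo+COM33 (log2 fold change -0.47, SE 0.0807, adjusted p = 0.00699; 0.0573 without Carbo 2), and was also called against control (-0.46, adjusted p = 0.00855; 0.0604 without control 2 and 0.0652 without Carbo+COM33 1). PRICKLE1, of the same process, fell by 0.92 against Carbo (adjusted p = 0.0490), a call lost without each library but control 1 and Carbo 1, with adjusted p from 0.0689 to 0.196. JAG1, a Notch ligand and known target, fell by 0.37 (adjusted p = 0.0304), a call that was lost when control 2, Carbo 2, Carbo 3 or any 1 of the Carbo+COM33 libraries was left out (adjusted p from 0.0513 to 0.152).

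PORCN, the acyltransferase that WNT ligands need for secretion, was at 99.9, 126.5 and 118 CPM in control, 98.5, 112.5 and 108 in Carbo and 72.8, 82.7 and 84.7 in Carbo+COM33. The 3 Carbo+COM33 libraries were the lowest of the 9. PORCN fell by 0.41 against Carbo (SE 0.101, adjusted p = 0.0377) and by 0.52 against control (SE 0.101, adjusted p = 0.0139). Against Carbo the call was lost without each library but control 1 and Carbo 1 (adjusted p from 0.0505 to 0.180), and against control without control 2 (0.0895), control 3 (0.0643), Carbo+COM33 1 (0.0863) or Carbo+COM33 2 (0.0596).

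In Carbo+COM33 vs control 5 of the 64 were called, 3 up and 2 down (6.29% of all genes), with a median of -0.09. Besides CCND1, CELSR2 and PORCN these were CD44, a surface glycoprotein and known target, which rose by 0.39 (adjusted p = 0.0245), and TNKS2, a tankyrase that marks AXIN for degradation, which rose by 0.30 (adjusted p = 0.0314). CD44 was not called without control 2 (adjusted p = 0.112), control 3 (0.0696), Carbo+COM33 1 (0.123) or Carbo+COM33 2 (0.107), and TNKS2 not without any 1 of the control libraries, Carbo 2, Carbo+COM33 1 or Carbo+COM33 2 (0.0561 to 0.143). CTNNB1, which encodes beta-catenin, was at 228 to 233 CPM in control, 234 to 247 in Carbo and 241 to 262 in Carbo+COM33, with log2 fold changes from 0.05 to 0.11 and no call. In Carbo vs control the unpaired test called 0 of the 64, with 7 at an unadjusted p under 0.05 (16.7% of all genes). DESeq2 called 0 of the 64, and a small share of all genes. The paired fit called 15, 8 up and 7 down, or 8, 4 up and 4 down, with the GC and length correction. These are 23.4% and 12.5% of the 64, near the 22.7% and 10.4% of all genes called in the same fits.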

How the data were processed

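RNA was measured in 9 SKOV3 libraries. The authors deposited read counts per gene, in whole numbers, and FPKM values. Tools named per the submitters' processing notes are HISAT2, HTSeq 0.11.2 and DESeq2 1.26.0, with build GRCh38; settings, strand included, are not given in the sources used here. All 32378 gene identifiers matched GENCODE 29, and for 32283 genes the deposited FPKM equalled the count per kilobase of joined exons scaled to the library's total count, within 0.5 bp of length. No library stood out by depth, and total counts limit the precision of low counts.

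The counts were fitted with edgeR 4.0.16 in R 4.3.3: filterByExpr over the 3 groups left 16450 genes, TMM factors ran from 0.982 to 1.01, and a coefficient per group was fitted to all 9 libraries (6 residual degrees of freedom, common dispersion 0.0133). The SE is the absolute log2 fold change over the root of the F statistic. Groups came from the labels. Deviations from the group means of same-numbered control and Carbo libraries correlated across 6607 genes (mean log2 CPM over 5) at 0.824, 0.565 and 0.748, so Carbo vs control was also fitted with the replicate number as a block (2 residual degrees of freedom). For Carbo+COM33 the same values ran from -0.420 to 0.138 and did not pair the libraries by number. Between libraries of different number the values ran from -0.779 to 0.402 for Carbo with control. With Carbo+COM33 they ran from -0.446 to 0.524, the highest being Carbo+COM33 2 with control 3. Some differently numbered libraries thus also deviated together. The GC and length correction subtracts each library's spline trend (5 degrees of freedom).

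Members, lists, tests and naming rules were chosen with earlier results of these data known. Given with full values are members called by the unpaired fit, or by the paired fit of Carbo vs control, the highest member of each role by FPKM, members whose groups do not overlap with a log2 fold change beyond 1, and other pathway genes that the unpaired fit called; further genes were named after their values were seen. Alternatives used DESeq2 1.42.0 and limma 3.58.1. On counts simulated for Carbo+COM33 vs Carbo over 16450 genes, the fit recovered 68% of genes changed by a log2 fold change of 1 and 89% of those changed by 2. These counts were drawn independently for each library, without shared replicate or GC trends. Changes under 1, the size of most calls here, were not simulated, so their recovery is not known. Tables and figures were made with Python 3.11.15, pandas 2.3.3, numpy 2.4.6 and matplotlib 3.10.9.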

Additional observations from a re-analysis of the deposited data

How the results depend on the processing

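Depth limits the 11 untested genes and the low ligands most, and with 3 libraries per group a single library decided most calls. DKK1 in Carbo+COM33 vs Carbo was called under all 21 alternatives run for it. Over the 13 named gene results and 273 alternatives, 206 kept their direction and side of the threshold, 38 kept the direction but lost the call, 25 gained a call and 4 turned: AXIN1 in Carbo vs control became 0.0277 with GC and length offsets and 0.0247 with these and the replicate block, and WNT7B became 0.0346 and 0.0316. The cause was not tested. The main fit called none of the Carbo vs control results, so keeping the side there meant staying uncalled, and all gained calls were theirs. All lost calls were of results that the main fit called. Of 21 alternatives each, 11 lost the call of DKK3, 10 of WNT2B and 3 of TCF7L2 against Carbo. Against control, 8 lost that of WNT7A and 6 that of DKK1.

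Counts of WNT genes called were 0, 4 and 2 for Carbo vs control and for Carbo+COM33 against Carbo and against control, in that order. Without a filter on low counts they were 1, 9 and 5. limma on log2(FPKM + 0.1) gave 2 and 0 for the comparisons with Carbo+COM33, and only the 6 libraries compared gave 2 for Carbo+COM33 vs Carbo. The replicate block of 6 libraries gave 7 for Carbo vs control and 4 for Carbo+COM33 vs control, and 3 and 6 with GC and length offsets; the block over 9 libraries gave 7 and 6 for the comparisons with Carbo+COM33. Leaving out 1 library gave 0 to 3, 1 to 14 and 0 to 5. With the block and 1 replicate number left out, chosen after seeing the data, counts were 1 to 14, 1 to 9 and 1 to 11.

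For the 64 other pathway genes the counts were 0, 5 and 5. Without the filter they were 3, 11 and 11, limma gave 3 and only the 6 libraries 3 for Carbo+COM33 vs Carbo. The replicate block of 6 libraries gave 15 for Carbo vs control and 3 for Carbo+COM33 vs Carbo, with GC and length offsets 8 for Carbo vs control and 8 for Carbo+COM33 vs control, and over 9 libraries 10 and 9 for the comparisons with Carbo+COM33. Leaving out 1 library gave 0 to 2, 0 to 11 and 0 to 13, and the block with 1 replicate number left out gave 5 to 15, 1 to 11 and 2 to 25. The number of all genes called moved between fits as well, in Carbo+COM33 vs Carbo from 816 to 2721 without Carbo 1. The counts in this section are therefore not read as results about the WNT or pathway genes. For the comparisons with Carbo+COM33 the numbers did not pair the libraries, and the block of 6 libraries left 2 residual degrees of freedom. A call lost there under the block was therefore not read as a weaker effect, and why it was lost was not tested.

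Over all genes, DESeq2 called 128, 1331 and 1558 against 0, 816 and 1035 by edgeR, the replicate block of 6 libraries 3739, 502 and 1129, and no filter 928, 1876 and 1934.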
